A study of Mus musculus with 4 samples.

Results

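The genes described here are the G1 cyclins (Ccnd1, Ccnd2, Ccnd3, Ccne1 and Ccne2) and inhibitors of the cyclin-dependent kinases (Cdkn1a, Cdkn1b, Cdkn1c, Cdkn2c and Cdkn2d). Every probe set that the array annotation assigned to 1 of these 10 genes alone was taken, which gave 23 of 45037 probe sets. The samples were mouse gonocytes, the male germ cells of the newborn testis, taken at 2 days post partum and enriched with magnetic beads through THY1, a protein of the cell surface. They had been cultured for 8 h with 100 nM retinoic acid (RA), the active vitamin A derivative, in 2 samples, and with the ethanol vehicle in 2 samples, each measured on 1 Affymetrix expression array. All 4 samples shared a medium without serum, growth factors or feeder cells. The labels give no genotype or strain. Nor do they state whether the samples of a group are separate cultures or mice, so each p-value reflects the spread among these 4 samples alone, and that spread may be technical.

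Progress through G1 depends on D-type cyclins, which bind CDK4 and CDK6, and then on E-type cyclins, which bind CDK2. Together these kinases phosphorylate the retinoblastoma proteins and release the E2F transcription factors that drive entry into S phase. The Cip/Kip inhibitors p21 (Cdkn1a), p27 (Cdkn1b) and p57 (Cdkn1c) bind cyclin-CDK complexes, while the INK4 inhibitors p18 (Cdkn2c) and p19 (Cdkn2d) bind CDK4 and CDK6 themselves. Male germ cells of the mouse stop dividing in G1 or G0 in the fetal testis and resume mitosis around birth, and p27 is among the inhibitors linked to this arrest. RA is known to drive spermatogonia towards differentiation, and cyclin D2 is known to appear at that step.

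The arrays had equal trimmed mean signals of 125. Median signals were 26.6 and 26.9 on the RA arrays and 27.5 and 29.5 on the vehicle arrays, and precision is limited by the number of arrays. Stra8, a germ cell gene known to be induced by RA, had intensities of 783 and 1477 in RA samples and of 188 and 53.3 in vehicle samples, a log2 change of 3.35 that did not pass either (limma, adjusted p = 0.397). Germ cell markers were present on every array, with summed intensities over 7 genes of 5981 and 6702 with RA and of 6454 and 6458 with vehicle. Without Sall4, with 2311 and 3776 with RA and 2268 and 2530 with vehicle, the other 6 summed to 3670 and 2925 with RA and to 4186 and 3928 with vehicle. Of the 7, 5 had a negative log2 change, among them Zbtb16, a transcriptional repressor found in undifferentiated spermatogonia. Its intensities were 368 and 174 with RA and 701 and 699 with vehicle. The probe set of Zbtb16 is of a kind whose probes may match other transcripts too. Sall4, which had a positive log2 change, was left out with no rule set for that choice. Of the markers left, Zbtb16 differed most between the groups, and besides it only Dazl was lower on both RA arrays. The lower sum without Sall4 leans on Zbtb16, and no conclusion on germ cell content is drawn from it. Markers of other testis cells gave signal as well, and the stromal sums given below were of like size to the germ cell sums. Sums over different genes do not give shares of cells. Summed Sertoli cell markers (7 genes) were 1739 and 1687 with RA and 1307 and 1576 with vehicle, and summed endothelial markers (5 genes) were 238 and 253 with RA and 209 and 175 with vehicle, so that both sums lay higher in the RA samples. Amh, a defining Sertoli cell marker, was near the background on every array, between 1.66 and 11.9. Of the other 6, 3 had a positive log2 change, between 0.36 and 0.56 (Wt1, Sox9 and Cldn11), and 3 lay between −0.07 and −0.00 (Dhh, Inha and Gata4). For Leydig, stromal and white blood cell markers the sums of the groups overlapped. Leydig sums (4 genes) were 1509 and 1978 with RA and 1374 and 2495 with vehicle. Stromal sums (6 genes) were 6626 and 8703 with RA and 6230 and 7325 with vehicle. Leukocyte sums (5 genes) were 566 and 1292 with RA and 744 and 1540 with vehicle. Log2 changes were positive for all 6 stromal markers, from 0.03 to 0.69, and all 5 endothelial markers, from 0.02 to 0.62. They were positive for 1 of 4 Leydig and 2 of 5 leukocyte markers, where 6884 of 13018 of all genes were positive. The ratio of 3' to 5' signal of Actb, a sign of RNA and amplification quality, was 2.08 and 2.32 with RA and 1.72 and 1.73 with vehicle. That of Gapdh was 1.85 and 2.0 with RA and 1.56 and 1.47 with vehicle, so both ratios were higher on both RA arrays. The part of these differences in the values below was not tested. In bulk RNA, fewer cells of a type and less RNA per cell cannot be told apart. Which cells gave the cyclin and inhibitor signal was not tested, so the values below are those of the whole samples.

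Of the 23 probe sets, 22 passed the filter on dim signals, and each of the 10 genes kept at least 1. RA was compared with vehicle with limma, fitted on all 27022 probe sets above the filter. None of the 22 passed at an adjusted p under 0.05, and their smallest adjusted p was 1.0, against a background of 0.0% of all probe sets called. At an unadjusted p under 0.05 there was 1 of 22, lower with RA, where 2.77% of all probe sets had such a p (1.65% lower and 1.12% higher). The median log2 change of the 22 was 0.0317, against −0.0165 over all probe sets, and their changes ran from −0.71 to 0.75. With 1 array left out this median lay between −0.0287, without vehicle replicate 2, and 0.113, without vehicle replicate 1. The RA and vehicle arrays did not overlap in 6 of the 22 probe sets, 3 higher and 3 lower with RA, or 27.3% beside a background of 27.9% (12.7% higher and 15.2% lower). For a single probe set the smallest two-sided p of an exact permutation test is 0.333 in this design. The count of 0 called members held without either vehicle array or RA replicate 2 and became 1, a Ccnd2 probe set, without RA replicate 1, while calls over all probe sets became 96 without RA replicate 1 and 138 without RA replicate 2.

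**Figure D1:**
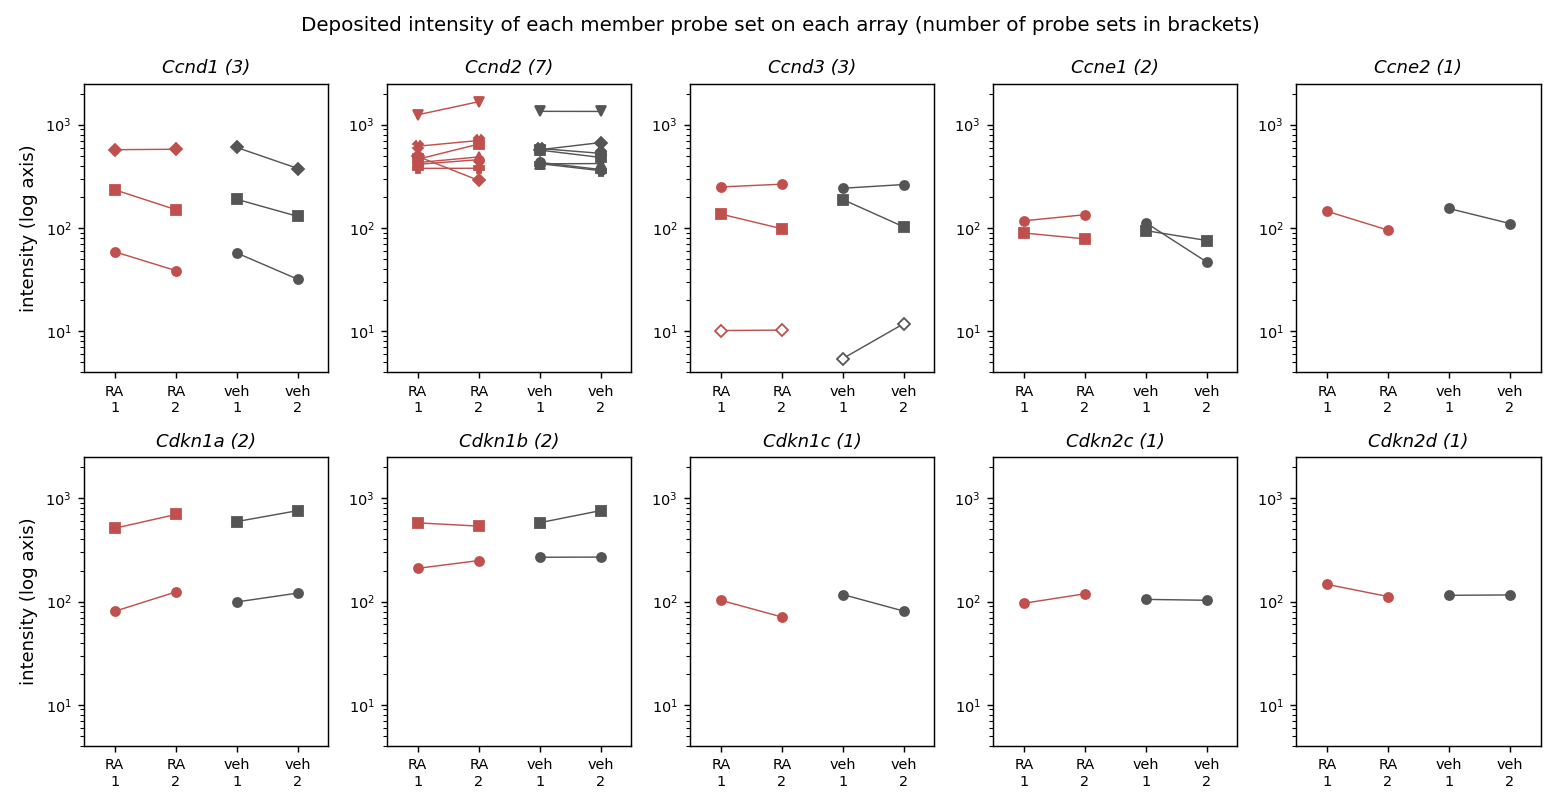
Deposited intensity (log axis) of each of the 23 member probe sets on the 2 RA arrays (red) and the 2 vehicle arrays (grey), 1 panel a gene. Each symbol is 1 probe set, lines join the arrays of 1 group, and open symbols mark the Ccnd3 probe set below the signal filter; most panels show groups at like heights, and Ccne1 on 1 probe set has its lowest value, 46.5, on vehicle replicate 2.

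The width of the intervals bounds what these arrays could show. The 95% confidence interval of the log2 change had a median width of 0.552 to each side. It lay wholly within a 2-fold change in either direction for 19 of the 22 probe sets, or 86.4%, against 72.2% of all probe sets. The 3 exceptions were 1416492_at of Ccne1, 1416124_at of Ccnd2 and 1438805_at of Ccnd3. Within a 1.5-fold change lay 3 intervals, and the other 19 reached past it on at least 1 side. Fold changes are on the scale of log2(intensity + 5), which understates those of dim probe sets.

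**Figure D2:**
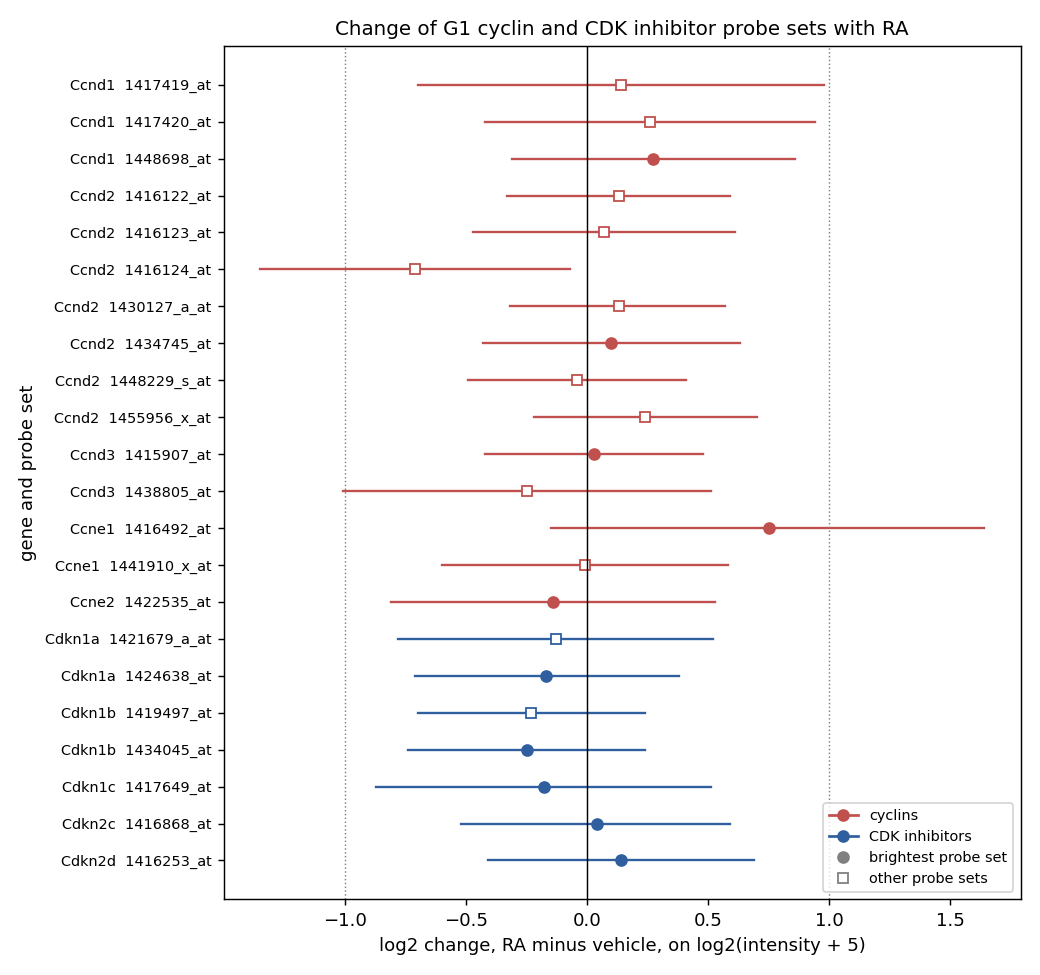
Log2 change, RA minus vehicle, of the 22 member probe sets above the filter, with 95% confidence intervals from limma (n = 2 arrays per group). Dotted lines mark a 2-fold change either way; every interval but that of 1416124_at of Ccnd2 includes 0.

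Promoter sequences are shown for Ccnd3 and Ccne1, because the Ccnd3 window holds hexamers of the kind that RA receptors bind and Ccne1 had the highest log2 change of the members. They are the 250 bases before the annotated start, from RefSeq on GRCm38.p6, at chr17:47504801-47505050 on the plus strand for the first Ccnd3 start and at chr7:38107491-38107740 on the minus strand for Ccne1. Capitals mark AGGTCA or GGTTCA on either strand.
Ccnd3: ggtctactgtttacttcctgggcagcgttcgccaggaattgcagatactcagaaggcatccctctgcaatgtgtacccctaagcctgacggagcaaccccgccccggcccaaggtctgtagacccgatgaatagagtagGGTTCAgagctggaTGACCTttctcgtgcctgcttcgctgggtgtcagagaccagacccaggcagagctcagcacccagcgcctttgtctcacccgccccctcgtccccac
Ccne1: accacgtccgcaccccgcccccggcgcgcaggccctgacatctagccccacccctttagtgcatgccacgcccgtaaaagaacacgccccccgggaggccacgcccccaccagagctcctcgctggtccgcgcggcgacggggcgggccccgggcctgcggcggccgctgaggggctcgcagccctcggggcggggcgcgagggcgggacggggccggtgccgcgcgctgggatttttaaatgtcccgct
AGGTCA was found in 14.0% and GGTTCA in 8.85% of 32851 such windows of all genes in the table, and windows were at hand for 6 of the 10 members. Ccnd3 had both in the window shown and neither in the window of its other start, which is not shown. Cdkn2c had AGGTCA at 1 of its starts, and the other 4 genes had neither. The spaced repeats AGGTCANNAGGTCA and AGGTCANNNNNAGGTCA, searched on both strands, were in none of the 9 member windows and in 0.00913% of all windows each. A match describes letters only and shows no binding, and these windows do not reach distant elements.

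Among the D-type cyclins, Ccnd1 had intensities of 572 and 578 in RA samples and of 601 and 376 in vehicle samples on its brightest probe set. Vehicle replicate 2 lay below the other 3 arrays, and the groups overlapped. The log2 change was 0.27 ± 0.25 (SE, n = 2 per group), with a 95% interval from −0.31 to 0.86, and leaving out vehicle replicate 2 gave −0.06, leaving out vehicle replicate 1 gave 0.61. The other 2 probe sets of Ccnd1 gave 0.26 ± 0.29 and 0.14 ± 0.36. Both of these were lower on the arrays numbered 2 in either group, with 234 and 150 in RA samples and 189 and 129 in vehicle samples on 1417420_at. Ccnd1 encodes the D-type cyclin that growth factor signalling is best known to induce, and the medium held no growth factors in any sample.

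Ccnd2 encodes cyclin D2 and was read by 7 probe sets, which did not all move alike. The brightest, 1434745_at, had intensities of 1247 and 1671 in RA samples and of 1347 and 1344 in vehicle samples. The RA arrays lay on either side of the vehicle arrays, and the log2 change was 0.10 ± 0.23, with an interval from −0.43 to 0.63. Of the other 6, 5 lay between −0.04 and 0.24, among them 1455956_x_at with 618 and 703 in RA samples and 588 and 527 in vehicle samples. That probe set and 1430127_a_at, with 429 and 487 in RA samples and 417 and 420 in vehicle samples, were higher on both RA arrays than on both vehicle arrays. The suffix of the first marks probes that may match other transcripts too.

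The remaining Ccnd2 probe set, 1416124_at, ran the other way. It had intensities of 493 and 288 in RA samples, against 572 and 671 in vehicle samples. Both RA arrays were lower, and RA replicate 2 was the lowest. The log2 change was −0.71 ± 0.27 (SE, n = 2 per group), with an interval from −1.35 to −0.07 and an adjusted p of 1.0 in limma (unadjusted p 0.0339). It was −1.09 without RA replicate 1, where limma gave an adjusted p of 0.0283 and assumed that the lone RA array varied like the vehicle arrays. Between the RA arrays this probe set differed by −0.76 on the log2 scale, replicate 2 minus replicate 1, while the other 6 probe sets of Ccnd2 differed by 0.00 to 0.49. The annotation used does not place the probe sets along the transcript, so which part of Ccnd2 each one reads is not given here.

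**Figure D3:**
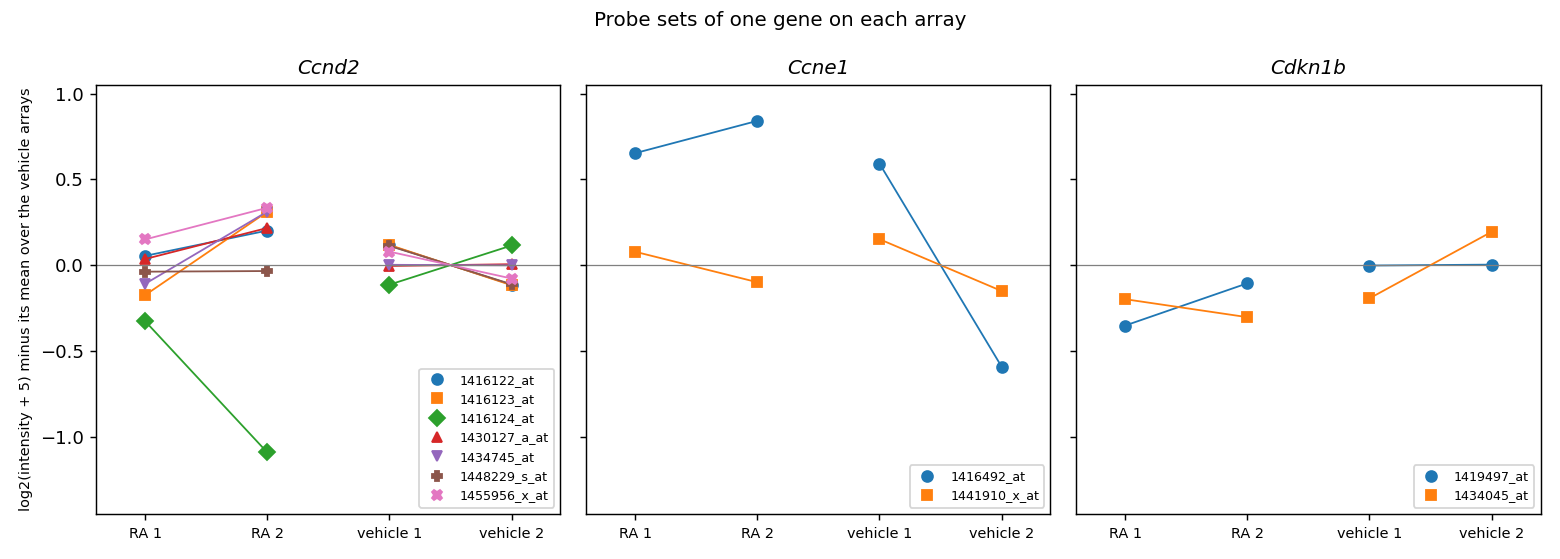
Log2(intensity + 5) of each probe set of Ccnd2, Ccne1 and Cdkn1b on the RA and vehicle arrays, minus its mean over the vehicle arrays; symbols and colours stand for probe sets and lines join the arrays of 1 group. In Ccnd2 1 probe set, 1416124_at, lies apart from the other 6 on RA replicate 2, and in Ccne1 the vehicle arrays lie farther apart on 1416492_at, with a difference of −1.19, than on 1441910_x_at, with −0.30.

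Ccnd3 encodes cyclin D3 and had the smallest log2 change of the D-type cyclins on the brightest probe sets. That probe set, 1415907_at, had intensities of 249 and 265 in RA samples and of 242 and 263 in vehicle samples. All 4 values lay close together, with a log2 change of 0.03 ± 0.19 and an interval from −0.42 to 0.48. A second probe set, 1438805_at, had 136 and 98.0 in RA samples and 188 and 102 in vehicle samples, a log2 change of −0.25 ± 0.33. There the arrays numbered 2 were the lower ones in both groups. The third, 1444323_at, had intensities between 5.41 and 11.8, near the pseudocount of 5, and stayed below the filter.

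Of the E-type cyclins, which act later in G1, Ccne1 had the highest log2 change of the 22 probe sets. On 1416492_at its intensities were 117 and 134 in RA samples, against 112 and 46.5 in vehicle samples. Both RA arrays were above both vehicle arrays, but RA replicate 1 and vehicle replicate 1 differed by little, and vehicle replicate 2 stood apart. The log2 change was 0.75 ± 0.38 (SE, n = 2 per group), or 1.68-fold, with an interval from −0.15 to 1.64, and limma gave an adjusted p of 1.0. Without vehicle replicate 2 it was 0.15 and without vehicle replicate 1 it was 1.34, neither of them called. The second probe set of Ccne1, 1441910_x_at, had 89.1 and 78.2 in RA samples and 94.0 and 75.3 in vehicle samples. Its log2 change was −0.01 ± 0.26, and the average of both probe sets gave 0.37. The suffix of 1441910_x_at marks probes that may match other transcripts too. Ccne2, the second E-type cyclin, had 145 and 95.1 in RA samples and 154 and 110 in vehicle samples on its only probe set, with a log2 change of −0.14 ± 0.29. Its arrays numbered 2 were the lower ones in both groups.

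The Cip/Kip inhibitors had log2 changes between −0.25 and −0.13 on all 5 of their probe sets, and none passed the test. These probe sets read only Cdkn1a, Cdkn1b and Cdkn1c. With 1 array left out, the sign did not hold for Cdkn1a or Cdkn1c. Their highest values were then 0.17 and 0.052 for Cdkn1a and 0.076 for Cdkn1c. Of all probe sets, 14214 of 27022 were negative. Cdkn1b encodes p27, which is known to accumulate in resting cells. Its brightest probe set, 1434045_at, had intensities of 580 and 539 in RA samples, against 582 and 763 in vehicle samples. On 1419497_at the values were 210 and 250 in RA samples, against 269 and 270 in vehicle samples. Both RA arrays were below both vehicle arrays on each probe set, with RA replicate 1 and vehicle replicate 1 nearly equal on the first. The log2 changes were −0.25 ± 0.21 and −0.23 ± 0.20 (SE, n = 2 per group), with intervals from −0.74 to 0.24 and from −0.70 to 0.24. Left-out arrays kept them negative, between −0.44 and −0.06 and between −0.35 and −0.11.

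Cdkn1a, the p53 target p21, had intensities of 514 and 699 in RA samples and of 597 and 762 in vehicle samples on its brightest probe set. The higher value of each group was on the array numbered 2, the groups overlapped, and the log2 change was −0.17 ± 0.24. The other Cdkn1a probe set had 80.5 and 124 in RA samples and 99.2 and 121 in vehicle samples, and a log2 change of −0.13 ± 0.28. Cdkn1c, an imprinted gene that encodes p57, had 103 and 70.9 in RA samples and 117 and 80.8 in vehicle samples. Here the lower value of each group was on the array numbered 2, with the same difference of −0.51 between the arrays of either group, against a log2 change of −0.18 ± 0.30 with RA.

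The INK4 inhibitors had 1 probe set each. Cdkn2c, which encodes p18, had intensities of 96.3 and 119 in RA samples and of 105 and 103 in vehicle samples. The vehicle values lay between the RA values, and the log2 change was 0.04 ± 0.24, with an interval from −0.52 to 0.59. Cdkn2d, which encodes p19, had 147 and 112 in RA samples and 115 and 116 in vehicle samples. RA replicate 1 was the highest and RA replicate 2 the lowest of the 4, with a log2 change of 0.14 ± 0.24 and an interval from −0.41 to 0.69.

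**Figure D4:**
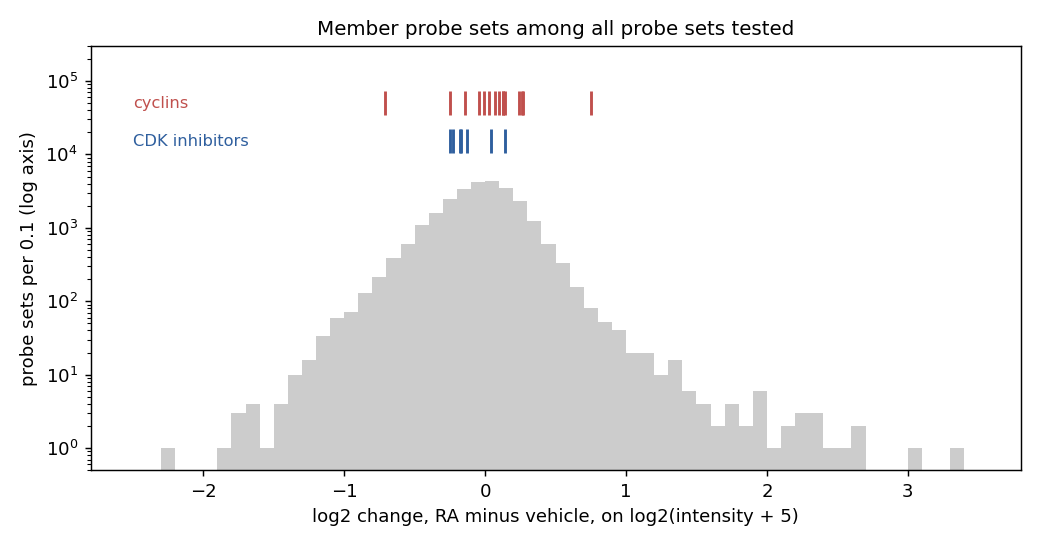
Histogram of the log2 change, RA minus vehicle, of all 27022 probe sets tested (grey, log axis, bins of 0.1), with ticks above it for the 15 cyclin and 7 inhibitor probe sets. The member ticks lie between −0.71, at percentile 1.97 of all probe sets, and 0.75, at percentile 99.1; all probe sets together run from −2.26 to 3.35.

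Taken by role, 10 of the 15 cyclin probe sets had a positive log2 change and 5 a negative one, with a median of 0.101. Of the 7 inhibitor probe sets, 2 were positive and 5 negative, with a median of −0.168. Over all probe sets tested, 12808 of 27022 were positive. The difference between the roles was not tested, and several probe sets read the same gene. Ccnd2 alone accounts for 7 of the 15 cyclin probe sets. With the brightest probe set of each gene, 4 of 5 cyclin genes and 2 of 5 inhibitor genes had a positive change. Of all genes, 6884 of 13018 did. Non-overlapping groups were found in 2 of the 10 genes, Ccne1 higher and Cdkn1b lower with RA, or 20% beside a background of 26.7% of all genes.

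Differences between arrays of 1 group were set beside the differences between the groups. In 21 of the 22 probe sets the RA arrays or the vehicle arrays differed from each other by more than the RA mean differed from the vehicle mean, as did 82.6% of all probe sets. The exception was 1455956_x_at of Ccnd2. The median size of the difference was 0.329 between the RA arrays and 0.257 between the vehicle arrays, against 0.141 between the groups. These measures are unlike, since the first are differences of single arrays and the last is a difference of means over 2 arrays. Single arrays vary more than such means, and the count above takes the larger of 2 differences. Most probe sets can thus meet it without any effect of RA, and no conclusion is drawn from it. The array numbered 2 was lower in both groups for 6 probe sets and higher in both for 5, which together are 50% of them, against 66.0% of all probe sets.

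**Figure D5:**
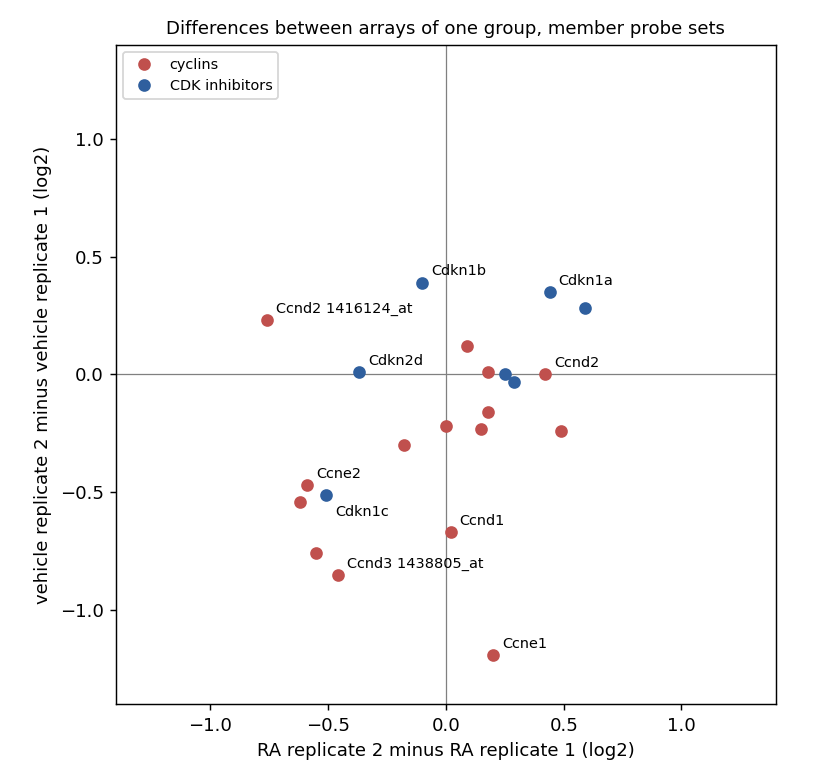
Difference between the arrays of 1 group on the log2(intensity + 5) scale for the 22 member probe sets, RA replicate 2 minus RA replicate 1 on the horizontal axis and vehicle replicate 2 minus vehicle replicate 1 on the vertical axis, with cyclins in red and inhibitors in blue. Probe sets in the lower left and upper right quadrants differed in the same direction in both groups; Ccne1 lies at −1.19 between the vehicle arrays and 0.20 between the RA arrays.

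The other genes of the G1 to S network gave no call either. Of 43 listed genes 42 had a probe set above the filter, 0 passed at an adjusted p under 0.05 (limma), and 0 had an unadjusted p under 0.05, beside a background of 2.73% of all genes. Log2 changes were positive for 30 and negative for 12 of them, where 6884 of 13018 of all genes were positive. The median log2 change of the 42 was 0.0719, against 0.0149 over all genes. Averaging each gene's probe sets brought it to 0.00357, where the median over all genes under that average is not given here. Scaling the arrays to equal medians brought it to 0.16. That scaling also moved the median over all probe sets, from −0.0165 to 0.0688, so 0.16 is not to be set beside 0.0149. Groups did not overlap in 13 genes with RA higher and in 4 with RA lower, which are 31.0% and 9.52%, beside backgrounds of 14.2% and 12.6%. The direction of single genes in this count depends on small differences, with all 42 changes smaller than 1.5-fold.

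The 4 network genes with the smallest p were Myc, Mycn, Cdk5rap3 and E2f1. Myc, a growth-promoting transcription factor, had intensities of 551 and 640 in RA samples, against 442 and 429 in vehicle samples. Both RA arrays were higher, with a log2 change of 0.44 ± 0.19 and an interval from −0.01 to 0.89. Mycn, its relative, had 427 and 327 in RA samples, against 507 and 502 in vehicle samples. Both RA arrays were lower, with a log2 change of −0.43 ± 0.21. E2f1, an activator of S phase genes, had 119 and 127 in RA samples, against 101 and 80.9 in vehicle samples, a log2 change of 0.42 ± 0.24, and Cdk5rap3 stood at 0.36 ± 0.20. The kinase partners of the cyclins were near 0 or slightly positive, with Cdk4 at 0.02 ± 0.19, Cdk2 at 0.14 ± 0.24 and Cdk6 at 0.24 ± 0.19. When all probe sets of a gene were averaged, Mycn stood at −0.13, E2f1 at 0.23 and Cdk6, with its sign turned, at −0.15.

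Genes that are read as signs of proliferation did not pass the test in either direction. Of 20 such genes above the filter, 14 had a positive and 6 a negative log2 change, with a median of 0.0843. Of all genes, 6884 of 13018 were positive, with a median of 0.0149. Mki67, a marker of cycling cells, had intensities of 587 and 831 in RA samples and of 568 and 682 in vehicle samples. Pcna, the sliding clamp of DNA replication, had 1107 and 1709 in RA samples and 1224 and 1206 in vehicle samples. The groups overlapped in both genes. Groups did not overlap in 4 genes with RA higher and in 2 with RA lower, or 20% and 10%, beside the same backgrounds of 14.2% and 12.6%.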

How the data were processed

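Mouse THY1-enriched gonocytes were measured on 4 Affymetrix Mouse Genome 430 2.0 arrays, 2 RA and 2 vehicle. Per the labels' protocols, 75 ng of total RNA was amplified with the NuGEN Ovation system, and GCOS 1.2 quantified the images. The authors deposited 1 linear intensity per probe set and array. The sources used here do not give how probes were combined or arrays scaled. Equal trimmed means were found on the 4 arrays, and no further normalization was applied.

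Groups came from the sample titles. The 64 control probe sets were left out. A pseudocount of 5, the rounded 20th percentile of the intensities, was added before log2. Probe sets with a mean intensity at or above the 40th percentile (16.03) were kept. The RA samples were set against the vehicle samples in limma 3.58.1 under R 4.3.3 (lmFit, eBayes with trend, 2 residual and 5.71 prior degrees of freedom), two-sided, with Benjamini-Hochberg adjustment over 27022 probe sets. The fit was tested on simulated data.

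Names came from the platform's annotation. For 34741 of the 34945 probe sets that name 1 gene, the Entrez ID matched a RefSeq gene, and its symbol was used, whether or not it differed. A gene was read from its brightest probe set. The annotation names no genome build, so the probe sets have no coordinates here. Those of the promoter windows came from RefSeq. The members and gene lists were chosen with earlier results of these data known. All 10 members are named whatever their test, together with the 4 network genes of smallest p, the kinase partners Cdk2, Cdk4 and Cdk6, and Stra8. Mki67, Pcna and some of the cell type markers are named besides, with no rule set for choosing them. No genes of like pattern were sought, because 4 arrays are fewer than the 6 samples a correlation needs. List genes with no probe set of their own were not analysed here. Alternatives covered normalization, pseudocount, filter, variance model, the replicate number, left-out arrays and an average over each gene's probe sets. Figures were drawn with matplotlib 3.10.9.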

Additional observations from a re-analysis of the deposited data

How the results depend on the processing

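Quantile normalization, equal array medians, the pseudocount, the filter and the variance model left the counts of called members, network genes and all probe sets at 0. The fit with the replicate number as a block called 558 probe sets, among them 2 of the members, 1416124_at of Ccnd2 (log2 change −0.71, adjusted p = 0.011 in limma) and 1416492_at of Ccne1 (0.75, adjusted p = 0.0389), so that 1 of the 10 member genes was called. That fit had 1 residual degree of freedom and an infinite prior, so each probe set took its spread from the trend over all probe sets and not from its own arrays. The labels do not say what the shared numbers mean. Deviations of same-numbered arrays from their group means correlated at 0.532 across 27022 probe sets, which are not independent, and 2 pairs are too few to settle a pairing. Equal array medians moved the median log2 change of the member genes to 0.119 and that of the network list to 0.16, and shifted all probe sets to 0.0688. The mean of all probe sets gave medians of −0.0104 and 0.00357. Some single values changed sign: with that mean Ccnd2 was −0.011, Ccnd3 −0.0096, Cdk4 −0.0027 and Cdk6, at 0.24 on its brightest probe set, −0.15, with equal array medians 1448229_s_at of Ccnd2 was 0.052 and 1441910_x_at of Ccne1 0.074, and with quantile normalization that Ccne1 probe set was 0.021. Scaling to equal medians acts on whole arrays, and the RA arrays had the lower medians, so this setting raises the changes with RA in general. The cause of the other shifts was not tested.

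Leaving out 1 array gave between 0 and 138 calls over all probe sets and between 0 and 1 among the member probe sets. The medians lay between −0.0287 and 0.113 for the member probe sets, 0.0157 and 0.0848 for the member genes, and 0.0177 and 0.116 for the network list. The sign held in all 4 left-out fits for 7 of the 22 member probe sets. The lowest and highest values of the others were −0.24 and 0.52, −0.051 and 0.57, and −0.063 and 0.61 for Ccnd1, −0.17 and 0.31, −0.11 and 0.31, and −0.15 and 0.075 for Ccnd2, −0.032 and 0.085 and −0.68 and 0.18 for Ccnd3, −0.16 and 0.14 for the second probe set of Ccne1, −0.43 and 0.15 for Ccne2, −0.42 and 0.17 and −0.39 and 0.052 for Cdkn1a, −0.43 and 0.076 for Cdkn1c, −0.11 and 0.18 for Cdkn2c and −0.043 and 0.33 for Cdkn2d. Of the named network genes, Cdk2 lay between −0.15 and 0.43 and Cdk4 between −0.031 and 0.075.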
